A study of Mus musculus with 16 samples.

Results

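Expression of 10 genes by which macrophages handle lipid was followed in sinus macrophages of the lymph node. The genes were taken by their mouse symbols, and all 10 (Apoe, Pltp, Abca1, Abcg1, Lpl, Fabp5, Plin2, Trem2, Gpnmb and Pparg) were found among the 55423 rows of the count table. Sub-capsular sinus macrophages (SSMs) and medullary sinus macrophages (MSMs) were sorted from male C57B/6 mice that carried MOC2 tumors, a transplanted mouse oral squamous cell carcinoma line, 2 weeks after 500000 cells were injected intradermally into a flank. Both subsets were gated as live CD45+ cells negative for CD3, B220 and Ly6G and positive for CD11b and CD169, with SSMs taken as CD11c- and low in side scatter and MSMs as CD11c+ and high in side scatter. Tumors were placed near the inguinal node, tumor-draining lymph nodes (tdLN) were taken on that side, and non-draining nodes (ndLN) were the inguinal, axillary and brachial nodes of the other flank. Node type therefore cannot be told apart from node site and number, and all 4 groups came from tumor-bearing animals. Each library was made from about 10000 cells of a pool of 2 mice (2 tdLN or 6 ndLN), and there were 2 libraries, pool 1 and pool 2, in each of the 4 groups. By the study's methods a pool of mice gave SSMs and MSMs from both node types. The study counts 4 pools, whereas the labels give 2 libraries in each group, each on 2 lanes. The label of the SSM library from tdLN taken here as pool 1 carries no pool number, while that of the other SSM library from tdLN carries a 2. Libraries of the same pool number were assumed to share mice, and pool was a term of the model. The p-values measure only the spread between libraries that the group and pool terms leave, with 2 pools behind it.

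Macrophages take up lipoproteins, membranes and dead cells, and must store or export the cholesterol and fatty acids these contain. Cholesterol leaves the cell through the transporters ABCA1 and ABCG1 to apolipoproteins and high-density lipoprotein, fatty acids are carried in the cytosol by binding proteins such as FABP5, and neutral lipid is kept in droplets coated by perilipins such as PLIN2. The liver X receptors, encoded by Nr1h3 and Nr1h2, sense oxysterols and with their RXR partner switch on Abca1, Abcg1, Apoe, Lpl and Pltp, whereas PPARγ, encoded by Pparg, responds to fatty acids and induces fatty acid binding and droplet genes. In the node, sinus macrophages line the spaces through which lymph and the lipoproteins it carries are filtered.

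Each library held 42972328 to 48130352 counts, and levels are given as normalized CPM, counts scaled to a common library size with TMM factors. The limit that a count of 0 allows, 3 counts, is 0.0623 to 0.0698 CPM, and it covers counting error only. SSM and MSM here name the sort gates, and markers of other cells were present in both. Siglec1, which encodes CD169, reached 15.1 and 8.47 CPM in SSMs from ndLN and 70.0 and 59.2 CPM in SSMs from tdLN, but 0.795, 1.63, 5.96 and 5.64 CPM in the 4 MSM libraries. MSM libraries carried 10 dendritic cell markers at a summed 4540 to 4920 CPM, with Xcr1, of type 1 conventional dendritic cells, between 630.4 and 752.4 CPM. SSM libraries carried T and innate-like lymphocyte markers at 1140 to 2740 CPM, NK cell markers at 1360 to 2320 CPM and mast cell and basophil markers at 410 to 3140 CPM. From ndLN to tdLN the 14 sinus macrophage markers rose in sum 2.53-fold and 2.68-fold in the 2 pools of SSMs, against 1.14-fold and 0.912-fold in MSMs. In the same SSM libraries the summed lymphocyte markers changed 0.476-fold and 0.493-fold and the sum of the mast cell and basophil markers 0.131-fold and 0.397-fold. In MSMs these sums changed 0.466-fold and 0.289-fold, and 0.609-fold and 0.451-fold. NK cell markers changed 0.587-fold and 1.18-fold in SSMs and 0.438-fold and 0.373-fold in MSMs. Dendritic cell markers changed 0.666-fold and 0.615-fold in SSMs and 1.0-fold and 1.05-fold in MSMs. Within the mast cell and basophil list Mcpt8, a basophil protease, rose 8.34-fold in SSMs, from 1.60 and 3.92 to 20.4 and 23.8 CPM (adjusted p = 0.00469). Neutrophil markers changed 14.5-fold in pool 1 of SSMs and 0.801-fold in pool 2, and B cell markers stayed between 24.8 and 66.4 CPM in all 8 libraries. In bulk RNA, fewer cells of a type cannot be told apart from less RNA per cell. Endothelial markers summed to 41.2 to 91.2 CPM, with Lyve1 at 0 in SSMs from ndLN and Prox1 at 0 in MSMs from ndLN, and with neither at 0 in the other groups. From ndLN to tdLN this sum changed 0.988-fold and 1.14-fold in SSMs. Within it Kdr, a receptor of blood endothelium, rose 5.93-fold in SSMs, from 9.49 and 2.71 to 39.0 and 29.5 CPM (adjusted p = 0.00747). Pecam1, of the same list, went the other way, from 74.5 and 69.0 to 47.0 and 51.8 CPM. The 8 markers of adipocytes, which also express Lpl, Plin2 and Pparg, summed to 0.247 to 1.54 CPM, with Lep, the leptin gene, at 0 in all 8 libraries. The 8 squamous epithelial markers summed to 19.4 to 52.9 CPM, changed 2.42-fold and 1.47-fold from ndLN to tdLN in MSMs and 0.586-fold and 1.06-fold in SSMs, and included Krt5 at 0 in all 8 libraries. The part of these other cells in the results below was not tested.

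**Figure D1:**
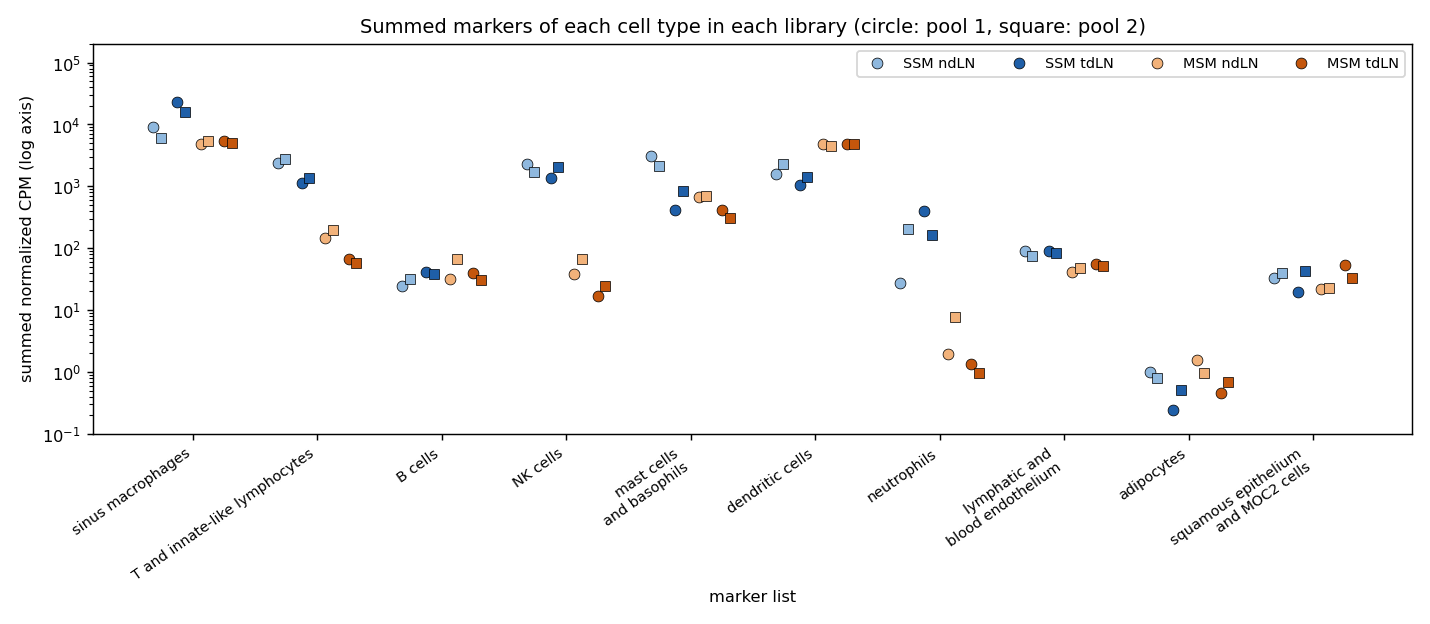
Summed normalized CPM of 10 marker lists on a log axis, with 1 point for each of the 8 libraries (circle, pool 1; square, pool 2; color, group). Sinus macrophage markers were highest in SSMs from tdLN, dendritic cell markers were highest in MSMs, and adipocyte markers lay between 0.247 and 1.54 CPM.

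The sequences before the transcription start are shown for the members on which the comparisons turned and for which RefSeq gave a promoter on GRCm38: Pltp and Plin2, which rose in SSMs from tdLN, and Abca1 and Apoe, which were higher in SSMs than in MSMs. Promoters were matched for 7 of the 10 members, those of Abcg1, Lpl and Fabp5 not being among them. Each sequence is the 250 bases before the start, 5′ to 3′ on the strand of the gene, which is the minus strand for all 4, at chr2:164857709-164857958 for Pltp, chr4:86670060-86670309 for Plin2, chr4:53159896-53160145 for Abca1 and chr7:19699189-19699438 for Apoe. Capitals mark exact matches on either strand to 8 searched motifs, and a match on the opposite strand appears as its reverse complement.
Pltp: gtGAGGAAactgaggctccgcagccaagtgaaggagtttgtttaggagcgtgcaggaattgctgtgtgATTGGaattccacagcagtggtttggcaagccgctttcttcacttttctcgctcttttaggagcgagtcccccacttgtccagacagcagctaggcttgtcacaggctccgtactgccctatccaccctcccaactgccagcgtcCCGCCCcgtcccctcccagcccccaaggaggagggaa
Plin2: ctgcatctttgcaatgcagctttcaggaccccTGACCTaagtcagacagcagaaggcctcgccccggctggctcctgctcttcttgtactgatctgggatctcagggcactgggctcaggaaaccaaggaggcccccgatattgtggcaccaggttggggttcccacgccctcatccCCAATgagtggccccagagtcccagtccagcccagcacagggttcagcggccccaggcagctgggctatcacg
Abca1: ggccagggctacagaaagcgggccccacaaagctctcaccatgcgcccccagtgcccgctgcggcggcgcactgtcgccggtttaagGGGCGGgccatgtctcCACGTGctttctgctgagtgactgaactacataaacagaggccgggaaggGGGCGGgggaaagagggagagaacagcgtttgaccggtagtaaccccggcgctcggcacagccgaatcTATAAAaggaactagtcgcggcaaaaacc
Apoe: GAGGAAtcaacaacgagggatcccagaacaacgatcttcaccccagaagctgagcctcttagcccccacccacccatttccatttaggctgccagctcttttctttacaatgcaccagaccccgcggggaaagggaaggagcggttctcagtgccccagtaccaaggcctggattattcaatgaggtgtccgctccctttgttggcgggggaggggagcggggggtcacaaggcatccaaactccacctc
The motifs were AGGTCA, the core that nuclear receptors bind, and CACGTG and CATGTG, bound by the MiT/TFE factors of lysosomal genes. The motif GAGGAA is bound by the macrophage factor PU.1 and TGANTCA by AP-1. Elements of general promoters were GGGCGG, a site for SP1, TATAAA, the TATA box, and CCAAT, bound by the factor NF-Y. None of the matches in these 4 sequences overlapped another. Plin2 held AGGTCA, beginning 218 bases before the start, as did 14.0% of all 32851 RefSeq promoter windows of this length, and CCAAT at 73 bases. Pltp held GAGGAA at 248 bases, a motif in 23.3% of all windows, CCAAT at 182 bases (33.8% of windows) and GGGCGG at 37 bases (32.7%). Abca1 held CACGTG at 147 bases (6.02% of windows), GGGCGG at 163 and 97 bases and TATAAA at 29 bases (12.4%), and Apoe held only GAGGAA, at 250 bases. CATGTG (12.3% of windows) and TGANTCA (6.75%) were not among the letters of the 4 sequences. Pairs of AGGTCA repeated head to tail with 4 bases between them, the arrangement known for liver X receptors, or with 1 base, the arrangement known for PPARγ, stood in 0.0152% and 0.0335% of windows and in none of those of the 7 matched members. A match is a stretch of letters and no evidence that a factor bound there. Only exact copies were searched and inexact pairs were not counted, so a missing match does not show that a receptor site is absent.

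Per kilobase of annotated exon, the members spanned a wide range of levels. Apoe was the most abundant in SSMs from ndLN (177 CPM per kb of group mean), SSMs from tdLN (369) and MSMs from ndLN (101), and Fabp5 was the most abundant in MSMs from tdLN (108, against 100.0 for Apoe). Trem2 was the least abundant in all 4 groups, between 0.161 and 0.995 CPM per kb. In SSMs from tdLN the order below Apoe was Pltp (169), Plin2 (168), Fabp5 (91.0), Abcg1 (9.83), Pparg (9.10), Lpl (7.72), Abca1 (5.29), Gpnmb (1.52) and Trem2, which placed Apoe, Pltp, Plin2 and Fabp5 above at least 97.1% of the genes tested. Between ndLN and tdLN Pltp moved in SSMs from the 90.2nd to the 98.5th percentile of these per-kilobase levels and Fabp5 from the 84.8th to the 97.1st.

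**Figure D2:**
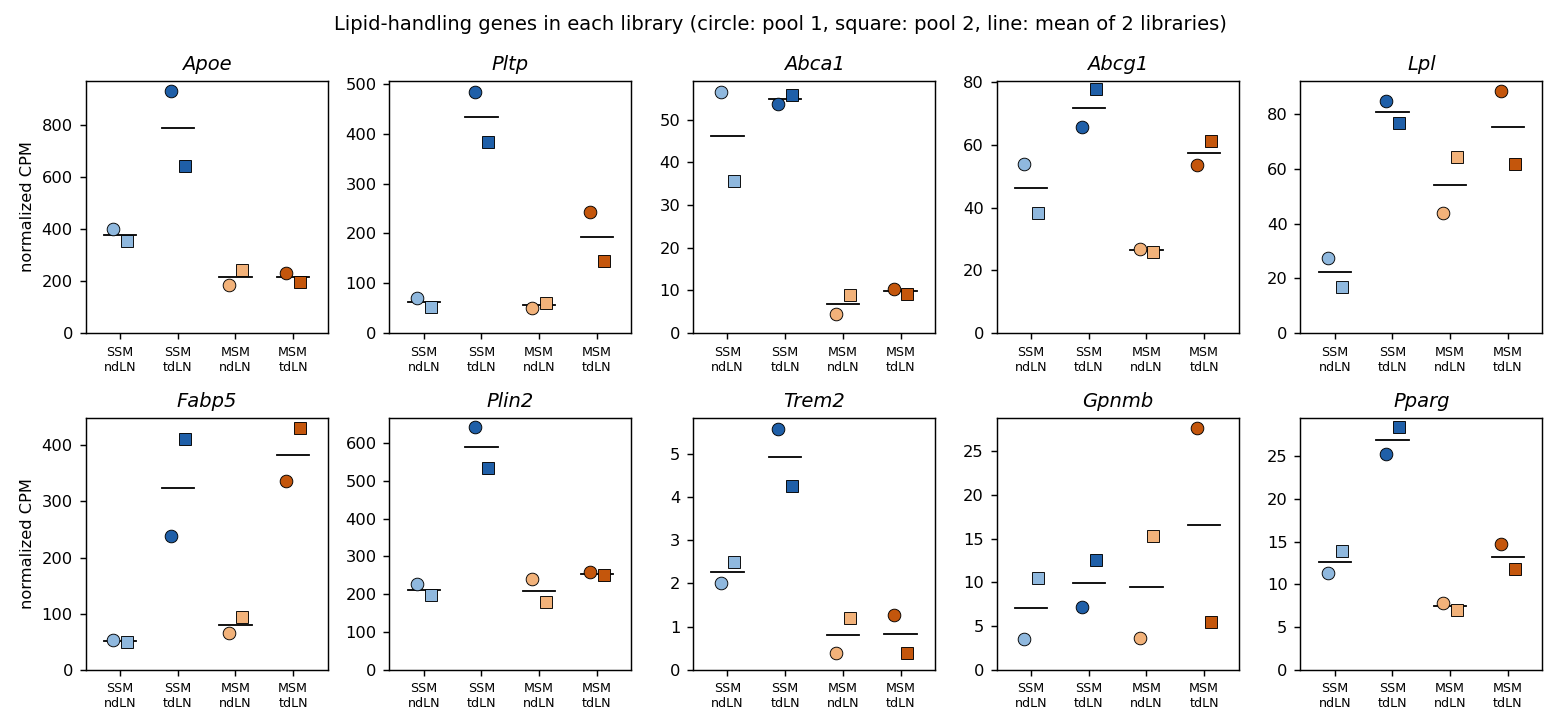
Normalized CPM of the 10 members in each of the 8 libraries, by group, on linear axes that start at 0 (circle, pool 1; square, pool 2; line, mean of 2 libraries). Both SSM libraries from tdLN lay above both SSM libraries from ndLN for 8 members, and the exceptions were Abca1 and Gpnmb.

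The secreted carriers were considered first. Apoe (chr7:19696109-19699188 on mm10, minus strand) encodes apolipoprotein E, which accepts cholesterol and is bound by lipoprotein receptors. Its level was 400.9 and 355.2 CPM in pools 1 and 2 of SSMs from ndLN, 933.7 and 643.3 CPM in SSMs from tdLN, 186.3 and 244.7 CPM in MSMs from ndLN, and 229.8 and 198.5 CPM in MSMs from tdLN. All 4 SSM libraries were above all 4 MSM libraries, and the MSM libraries of the 2 node types overlapped. In tdLN, Apoe was 3.66-fold higher in SSMs than in MSMs (log2 fold change 1.87 ± 0.21 SE, adjusted p = 0.000914). The difference in ndLN was 1.74-fold (adjusted p = 0.0276), and that between tdLN and ndLN was 2.07-fold in SSMs (log2 1.05 ± 0.20, adjusted p = 0.0205). Neither reached the adjusted p of 0.01 used throughout in edgeR, and both did in DESeq2 (0.00126 and 0.000211). In MSMs the log2 difference was -0.02, with a 95% confidence interval from -0.50 to 0.46.

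Pltp (chr2:164839518-164857711, minus strand) encodes phospholipid transfer protein, which moves phospholipid between lipoproteins. It stood at 70.0 and 53.2 CPM in SSMs from ndLN and rose to 484.6 and 383.6 CPM in SSMs from tdLN. In MSMs it was at 50.9 and 60.9 CPM in ndLN and at 242.2 and 144.8 CPM in tdLN. Libraries from tdLN were above those from ndLN in both subsets without overlap, and the 4 ndLN libraries of the subsets overlapped. The rise in SSMs was 7.06-fold (log2 2.82 ± 0.23, adjusted p = 0.00157) and was 6.92-fold and 7.21-fold in the 2 pools taken separately. In MSMs the difference was 3.34-fold (log2 1.74 ± 0.23, adjusted p = 0.0315), 4.76-fold and 2.38-fold by pool. Pltp was 2.28-fold higher in SSMs than in MSMs from tdLN (adjusted p = 0.00867), a call that did not pass without pool as a block in the model (adjusted p = 0.0128) or when any library other than the 2 of MSMs from ndLN was left out (adjusted p from 0.0175 to 0.0964). Exons of Pltp overlap those of Ctsa, which encodes the lysosomal protease cathepsin A, on the opposite strand, and the strand setting of the counting was not given in the sources used here, so the counts of these genes may not be fully separate. Ctsa held 181521 counts over all libraries against 66073 for Pltp, and its own difference between tdLN and ndLN in SSMs was log2 1.34 ± 0.13 (adjusted p = 0.00197).

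Of the efflux transporters, Abca1 separated the subsets more than Abcg1 did. Abca1 (chr4:53030787-53159895, minus strand) loads cholesterol and phospholipid onto lipid-poor apolipoproteins. SSMs held 56.5 and 35.8 CPM in ndLN and 53.7 and 55.8 CPM in tdLN. MSMs held 4.56 and 8.96 CPM in ndLN and 10.3 and 9.18 CPM in tdLN. The lowest SSM library was above the highest MSM library, whereas the node types overlapped in SSMs. In ndLN, Abca1 was 6.69-fold higher in SSMs (log2 2.74 ± 0.35, adjusted p = 0.00114, and 0.0105 without pool 1 of MSMs from ndLN), and in tdLN it was 5.63-fold higher (log2 2.49 ± 0.33, adjusted p = 0.00196). Between tdLN and ndLN the log2 difference was 0.25 in SSMs, with an interval from -0.43 to 0.93, and 0.50 in MSMs, with an interval from -0.39 to 1.39. Abcg1 (chr17:31057675-31117988, plus strand), which exports cholesterol to mature high-density lipoprotein, had a different pattern, with 54.0 and 38.2 CPM in SSMs from ndLN, 65.7 and 77.7 CPM in SSMs from tdLN, 26.9 and 25.8 CPM in MSMs from ndLN and 53.7 and 61.4 CPM in MSMs from tdLN. The tdLN libraries were above the ndLN libraries in both subsets. In MSMs the difference was 2.19-fold (log2 1.13 ± 0.22, adjusted p = 0.102 in edgeR and 0.000228 in DESeq2) and in SSMs 1.56-fold (adjusted p = 0.112). SSMs exceeded MSMs in Abcg1 by 1.75-fold in ndLN (adjusted p = 0.0328) and by 1.25-fold in tdLN (adjusted p = 0.382).

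Lpl (chr8:68880491-68907448, plus strand) encodes lipoprotein lipase, which frees fatty acids from triglyceride-rich lipoproteins. Its levels were 27.6 and 16.9 CPM in SSMs from ndLN and 84.9 and 76.8 CPM in SSMs from tdLN. MSMs had 44.0 and 64.3 CPM in ndLN and 88.6 and 61.9 CPM in tdLN. SSMs from ndLN were thus below the other 6 libraries, and those 6 libraries overlapped. In SSMs Lpl rose 3.66-fold from ndLN to tdLN (log2 1.87 ± 0.29, adjusted p = 0.00946). This call lay at the threshold and was lost under 10 of 17 alternatives, DESeq2's size factors (adjusted p = 0.0108) and the unfiltered table (adjusted p = 0.0105) among them. It was lost without any SSM library (adjusted p from 0.0271 to 0.10) and without either MSM library from tdLN (0.0227 and 0.0221). Unlike most members, Lpl was lower in SSMs when the subsets were compared in ndLN, 2.49-fold (log2 -1.32 ± 0.29, adjusted p = 0.0154), a difference that was called in DESeq2 (0.000195), from lane 3 alone (0.00971) and without pool 1 of MSMs from ndLN (0.00741). In tdLN the log2 difference between subsets was 0.12, with an interval from -0.53 to 0.76.

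The intracellular members were Fabp5 and Plin2. Fabp5 (chr3:10012548-10016607, plus strand), a cytosolic carrier that delivers fatty acids to membranes and nuclear receptors, was at 52.5 and 50.0 CPM in SSMs from ndLN and at 238.7 and 410.6 CPM in SSMs from tdLN. In MSMs it was at 65.8 and 94.6 CPM in ndLN and at 337.0 and 430.1 CPM in tdLN. All 4 tdLN libraries were above all 4 ndLN libraries, and SSMs and MSMs from tdLN overlapped. Fabp5 rose 6.09-fold in SSMs (log2 2.61 ± 0.21, adjusted p = 0.00143), 4.55-fold and 8.21-fold by pool. The difference in MSMs was 4.82-fold (log2 2.27 ± 0.21, 5.12-fold and 4.55-fold by pool) at an adjusted p of 0.0123, and it passed the threshold under 5 alternatives, each lane alone (0.00396 and 0.00776) and DESeq2 among them. The log2 difference between these effects was 0.34, with an interval from -0.32 to 1.00. Stretches of 50 bases that recur in 5 other genes, near-identical copies among them, made up 5.48% of its transcripts, so its counts could be split.

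Plin2 (chr4:86648386-86670060, minus strand) encodes perilipin 2, the common coat protein of lipid droplets outside fat tissue. SSMs from ndLN held 226.7 and 197.6 CPM, and SSMs from tdLN 644.0 and 533.6 CPM. MSMs held 239.2 and 178.8 CPM in ndLN and 258.8 and 250.0 CPM in tdLN. SSMs from tdLN stood apart from the other 6 libraries, and the ndLN libraries of the subsets overlapped. Plin2 rose 2.77-fold in SSMs (log2 1.47 ± 0.13, adjusted p = 0.00192) and was 2.30-fold higher in SSMs than in MSMs from tdLN (log2 1.20 ± 0.13, adjusted p = 0.000839). In MSMs the difference between node types was 1.23-fold (adjusted p = 0.431), and in ndLN the subsets differed by log2 0.03, with an interval from -0.28 to 0.34. Of the 10 members, Plin2 had the smallest p-value for the difference between the tdLN effects of the subsets, log2 1.17 ± 0.19 at an adjusted p of 0.0388, which DESeq2 gave as 3.84e-06. Stretches of 50 bases shared with the gene model Gm12551 made up 2.57% of its transcripts.

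Trem2 and Gpnmb, both known from lipid-laden macrophages, were expressed at low levels. Trem2 (chr17:48346401-48354147, plus strand) encodes a lipid-binding surface receptor that signals through TYROBP, and had 2.00 and 2.51 CPM in SSMs from ndLN, 5.58 and 4.26 CPM in SSMs from tdLN, 0.385 and 1.20 CPM in MSMs from ndLN and 1.26 and 0.396 CPM in MSMs from tdLN. These values rest on 15 to 249 counts per library, and the mean of 49.7 counts on the scale of 1 lane was under the minimum of 100, so Trem2 could not be called in any comparison. SSM libraries were nonetheless above MSM libraries throughout, by 6.06-fold in tdLN (log2 2.60 ± 0.58, adjusted p = 0.0201). Gpnmb (chr6:49036546-49070929, plus strand) encodes a glycoprotein of lysosome-related membranes. Its 2 pools differed more than its groups, at 3.57 and 10.5 CPM in SSMs from ndLN, 7.20 and 12.6 CPM in SSMs from tdLN, 3.62 and 15.3 CPM in MSMs from ndLN and 27.6 and 5.50 CPM in MSMs from tdLN. In the edgeR fit of all libraries, no comparison of Gpnmb had an adjusted p under 0.597, although some alternatives gave lower values. Its standard error was between 0.87 and 0.91 on the log2 scale in the 4 pairwise comparisons, so differences of several-fold were not detectable.

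Pparg (chr6:115360951-115490399, plus strand), the nuclear receptor among the members, was at 11.4 and 13.9 CPM in SSMs from ndLN, 25.3 and 28.5 CPM in SSMs from tdLN, 7.82 and 7.02 CPM in MSMs from ndLN and 14.7 and 11.8 CPM in MSMs from tdLN. SSMs from tdLN were above the other 6 libraries and MSMs from ndLN below them. Its differences were 2.13-fold between node types in SSMs (log2 1.09 ± 0.22, adjusted p = 0.0228), 1.79-fold in MSMs (adjusted p = 0.254), 1.70-fold between subsets in ndLN (adjusted p = 0.0624) and 2.03-fold in tdLN (adjusted p = 0.0184). None of these reached the threshold in edgeR with pool in the model, although the last passed it without pool (adjusted p = 0.0089), and DESeq2 called the first (0.00226) and the last (0.00137).

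How SSMs change in a node that drains a tumor was asked by comparing tdLN with ndLN. In SSMs, Pltp, Fabp5, Lpl and Plin2 rose, and all 10 members had higher fitted levels in tdLN. The 4 calls among 10 members stood against 1.99% of all 21085 genes tested that were called higher and 1.05% called lower (adjusted p under 0.01 and mean normalized count over 100, edgeR's quasi-likelihood test). DESeq2 called 6 members, Apoe and Pparg beside these 4, and 1973 of all 21085 genes. An unadjusted p under 0.05 in edgeR was reached by 8 of 10 members and by 4848 of all genes. The median log2 fold change of the members was 1.11 and that of all genes tested -0.04. Both tdLN libraries were above both ndLN libraries for 8 of 10 members, as for 25.6% of all genes. The calls of Pltp, Lpl and Plin2 needed every SSM library, and that of Lpl also needed both MSM libraries from tdLN. In a fit of the SSM libraries alone 0 calls were made. Leaving out pool 1 of SSMs from ndLN left 1 call, Fabp5, and leaving out pool 2 of SSMs from ndLN or either SSM library from tdLN left 0, with 6 or 7 members at an unadjusted p under 0.05.

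In MSMs edgeR called 0 of 10 members, and few genes at all, 0.00474% of those tested as higher in tdLN and 0.0190% as lower. DESeq2 called Pltp, Fabp5 and Abcg1, and 503 of all 21085 genes. An unadjusted p under 0.05 in edgeR was reached by 4 members and by 2517 of all genes. The median log2 fold change of the members was 0.67, against 0.01 over all genes, and both tdLN libraries were above both ndLN libraries for 6 of 10 members and for 20.4% of all genes. Whether the effect of the tdLN differed between subsets was tested by an interaction term. In edgeR it called 0 of 10 members and 0.0379% of all genes. There, 4 members and 2600 of all 21085 genes had an unadjusted p under 0.05. DESeq2 called Plin2 among the members, and 706 of all genes. The fitted interaction was positive for Apoe (log2 1.08), Lpl (1.43), Pltp (1.08) and Plin2 (1.17), each with a 95% interval above 0 and an adjusted p between 0.0388 and 0.19.

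The subsets were compared within each node type. In ndLN, Abca1 was the only member of 10 called by edgeR, against 6.01% of all genes called higher in SSMs and 6.06% called lower. DESeq2 called 4 members, Apoe, Lpl and Abcg1 beside Abca1, and 3690 of all 21085 genes. The members' median log2 difference in edgeR was 0.44. In tdLN, Apoe, Abca1, Pltp and Plin2 were higher in SSMs, 4 of 10 members against 5.16% of all genes called higher and 3.52% called lower, and the median was 1.10. In the edgeR fit of all 8 libraries, 6 of 10 members and 5865 of all 21085 genes had an unadjusted p under 0.05 in tdLN. This comparison shares the SSM libraries from tdLN with the comparison of node types. Without pool 1 of SSMs from tdLN or without either MSM library from tdLN 0 members were called, and without pool 2 of SSMs from tdLN 1, Apoe, was called, with 6 or 7 members at an unadjusted p under 0.05. Beside these differences, summed dendritic cell markers were higher in MSMs, and summed lymphocyte and NK cell markers were higher in SSMs. Mast cell and basophil markers summed to 3138 and 2131 CPM in SSMs and 672.2 and 691.9 CPM in MSMs from ndLN. In tdLN they summed to 409.9 and 844.9 CPM in SSMs and 409.4 and 311.8 CPM in MSMs. Kit, of the same list, was higher in MSMs, with means of 610.2 against 410.1 CPM in ndLN and 321.7 against 67.4 CPM in tdLN. The part of these other cells in the result was not tested.

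**Figure D3:**
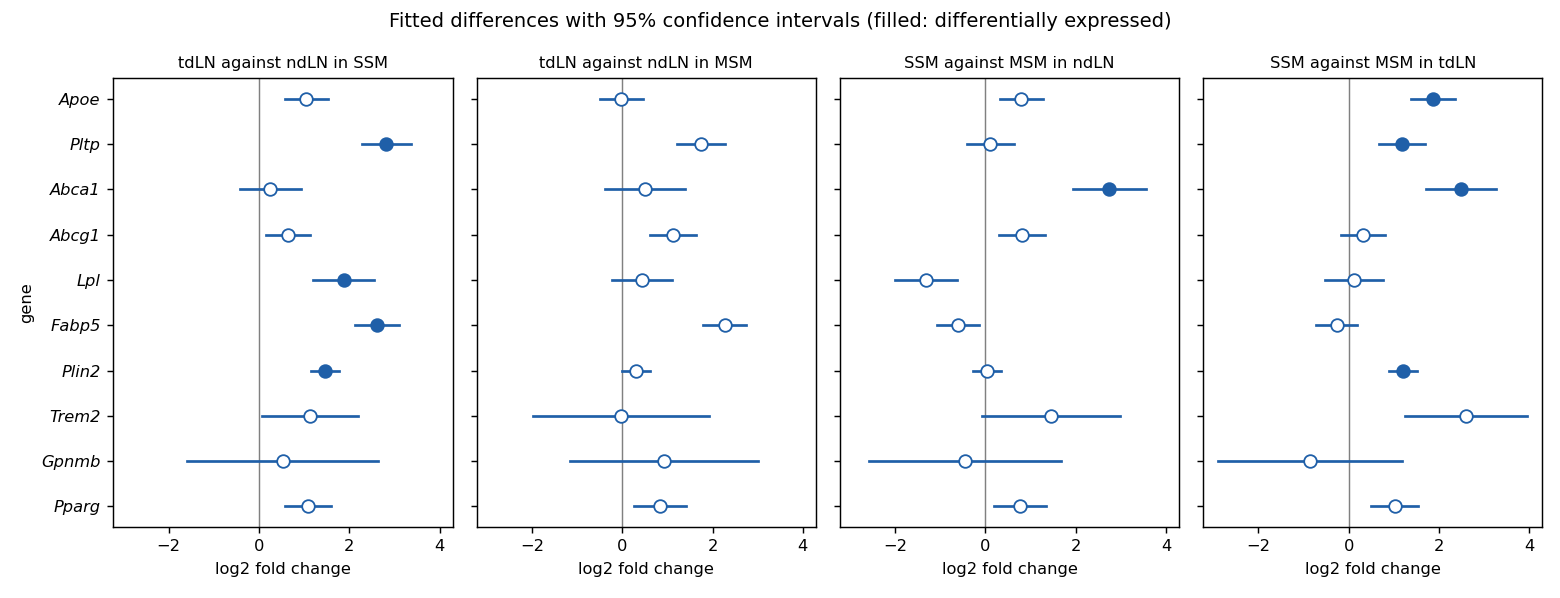
Fitted log2 fold changes of the 10 members (points) with 95% confidence intervals (lines) in 4 comparisons, where filled points passed an adjusted p of 0.01 and a mean normalized count of 100. Pltp, Fabp5, Lpl and Plin2 are filled for tdLN against ndLN in SSMs, and none is filled in MSMs.

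The rise in SSMs from tdLN was accompanied by that of the sinus macrophage markers, of which 9 of 14 were called higher (median log2 fold change 2.17), among them Mertk, which encodes a receptor for apoptotic cells, and the complement genes C1qa, C1qb and C1qc. Each member was therefore also expressed per 1000 CPM of the summed markers in the same library, a sum to which the lysozyme gene Lyz2 contributed most (7940 and 5044 of 9277 and 6026 CPM in SSMs from ndLN). The sum rose 2.53-fold and 2.68-fold in the 2 pools of SSMs, so any gene that rose less is lower in SSMs from tdLN on this scale by construction. The share of all genes in each order on this scale was not computed for either subset. The counts of members below therefore show nothing particular to them. On this scale, chosen after the values were seen and given without a test, 3 members were still higher in both SSM libraries from tdLN than in both from ndLN. Pltp went from 7.55 and 8.83 to 20.7 and 23.7 per 1000 CPM, Fabp5 from 5.66 and 8.30 to 10.2 and 25.4, and Lpl from 2.98 and 2.81 to 3.62 and 4.75. Plin2 overlapped between node types, with 24.4 and 32.8 against 27.5 and 33.0 per 1000 CPM. Apoe, at 43.2 and 58.9 against 39.8 and 39.8, Abca1, at 6.09 and 5.93 against 2.29 and 3.46, and Abcg1, at 5.82 and 6.34 against 2.80 and 4.81, were lower in SSMs from tdLN. In MSMs the sum, mostly Lyz2, changed 1.14-fold and 0.912-fold, although C1qa went from a mean of 20.2 to 75.7 CPM, C1qb from 42.8 to 136.0 and Siglec1 from 1.21 to 5.80. There, 6 members were higher in tdLN on this scale, including Pltp (10.6 and 11.1 against 44.5 and 29.0) and Fabp5 (13.7 and 17.3 against 61.9 and 86.0). The part of the marker shift in the members' rise was not tested.

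**Figure D4:**
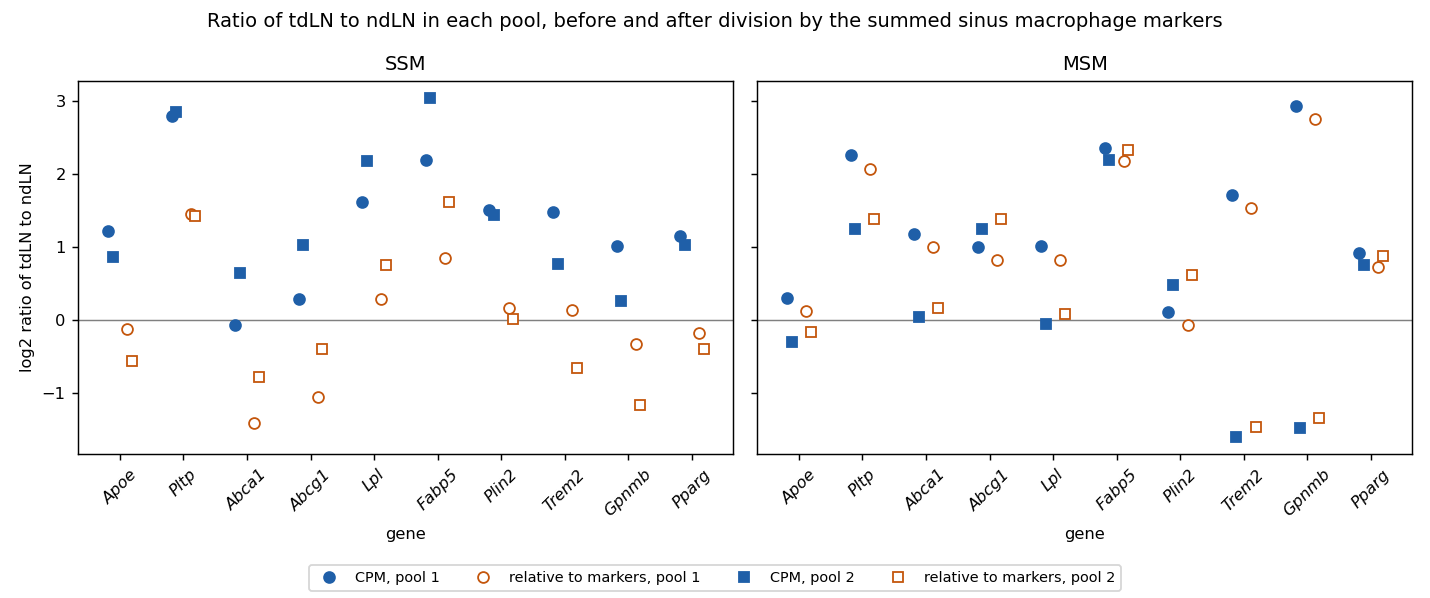
The log2 ratio of tdLN to ndLN for each member in pool 1 (circles) and pool 2 (squares), from normalized CPM (filled) and after division by the summed CPM of 14 sinus macrophage markers in the same library (open). In SSMs, the open symbols of Pltp, Fabp5, Lpl and Plin2 (1.12-fold and 1.01-fold) stay above 0 and those of Apoe, Abca1, Abcg1, Gpnmb and Pparg lie below 0 in both pools.

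The regulators of these genes were examined next, in a list of 20 nuclear receptors and targets of which 19 could be tested. Nr1h3, which encodes a liver X receptor, was at 12.2 and 14.6 CPM in SSMs from ndLN and 82.9 and 60.4 CPM in SSMs from tdLN. In MSMs it was at 10.9 and 12.1 CPM in ndLN and 27.4 and 20.1 CPM in tdLN. It rose 5.29-fold in SSMs (log2 2.40 ± 0.24, adjusted p = 0.0022) and was the only called gene of the list in that comparison. In MSMs the difference was 2.05-fold (adjusted p = 0.171). Nr1h2, the widely expressed liver X receptor, was at 126.8 to 144.7 CPM in SSMs and 148.2 to 185.8 CPM in MSMs, and Rxra, the partner of both families, at 30.0 to 38.1 and 23.6 to 35.2 CPM, with adjusted p-values of 0.0711 or more in every comparison. Between subsets the largest called difference of the list was that of Scd1, a fatty acid desaturase and liver X receptor target, at 0.423 to 3.26 CPM in SSMs and 60.9 to 86.8 CPM in MSMs (adjusted p = 3.29e-05 in ndLN and 0.00011 in tdLN), and Lpcat3, which remodels phospholipids, was 2.53-fold and 2.28-fold higher in SSMs.

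Among 18 tested genes of apolipoproteins and of cholesterol efflux, esterification and lysosomal release, 5 rose in SSMs from tdLN, with a median log2 fold change of 0.84 over the list. They included Scarb1, the high-density lipoprotein receptor (3.07-fold, adjusted p = 0.00197), Apobec1, which edits apolipoprotein B mRNA (2.59-fold), Cyp27a1, which makes an oxysterol (2.57-fold), and Lrp1, a receptor for apolipoprotein E (2.51-fold). In ndLN, Cyp27a1 and Scarb1 were 4.82-fold and 2.32-fold lower in SSMs than in MSMs, and Abca2 and Apobec1 were 4.20-fold and 3.55-fold higher. Of 19 genes of fatty acid uptake, binding and activation, 2 rose in SSMs from tdLN, the scavenger receptor Msr1 (3.77-fold, adjusted p = 0.00259) and the acyl-CoA synthetase Acsl1 (2.01-fold), and 1 fell, the fatty acid transporter Cd36 (2.37-fold, adjusted p = 0.00681). In ndLN, Cd36 was 20.9-fold lower in SSMs than in MSMs, at 23.7 and 24.5 against 545.2 and 467.9 CPM, whereas Msr1 was 5.26-fold higher.

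Of 18 tested lipid droplet genes beside Plin2, 1 was called in SSMs between node types, Dgat1, which makes the triglyceride stored in droplets, and it fell, from 1214 and 1559 CPM in ndLN to 363.6 and 317.9 CPM in tdLN (4.07-fold, adjusted p = 0.0024). The median log2 fold change of the list was -0.04, as was that of all genes tested. Dgat1, Dgat2, Agpat2 and G0s2, enzymes of triglyceride synthesis and an inhibitor of its breakdown, were 14.1-fold, 7.84-fold, 3.31-fold and 11.4-fold higher in ndLN SSMs than in ndLN MSMs, all called. Of 20 genes of TREM2 signalling and lipid-associated macrophages, 4 rose in SSMs from tdLN, namely Spp1, which encodes osteopontin (3.03-fold), the receptor tyrosine kinase Axl (2.98-fold), the β-glucan receptor Clec7a (2.86-fold) and the lysosomal protease Ctsb (2.40-fold). Tyrobp, the signalling partner of TREM2, was at 826.6 and 469.4 CPM in SSMs from ndLN and 1347 and 1352 CPM in SSMs from tdLN (2.10-fold, adjusted p = 0.0427). Over the 5 lists, 12 of 94 genes were called higher and 2 lower in SSMs from tdLN against 1.99% and 1.05% of all genes, 3 were called in all without pool 1 of SSMs from ndLN, and 0 without any of the other SSM libraries. In MSMs edgeR called 0 of the 94, and DESeq2 called 6 of them and 503 of all 21085 genes. An unadjusted p under 0.05 in edgeR was reached by 13 of the 94 and by 2517 of all genes.

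**Figure D5:**
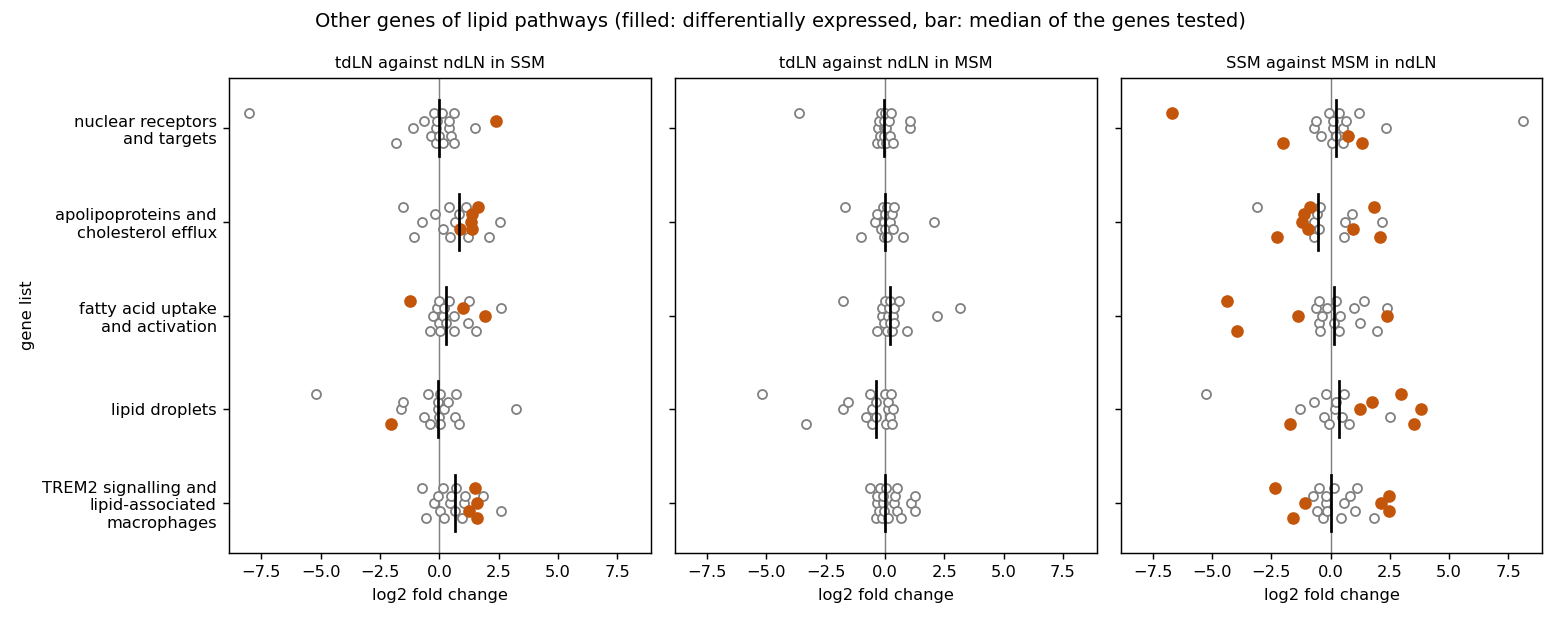
Log2 fold changes of the 94 tested genes of 5 lipid pathway lists in 3 comparisons, where filled points passed the adjusted p of 0.01 and the mean count of 100 and bars give the median of each list. In SSMs from tdLN, 12 genes are called higher and 2, Cd36 and Dgat1, lower, and in MSMs none is filled.

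Genes with the pattern most like each member were sought among those with a mean normalized count over 100, by the root mean square difference of log2 CPM profiles centred on their own means over the 8 libraries. Plin2 had the closest neighbours, Ifi207, Tlr13 and Adam15 (differences of 0.11, 0.12 and 0.13 on the log2 scale). Nearest to Pltp were C1qc, Rab3il1 and Mmp14 (0.27 to 0.36), and nearest to Apoe were Plaur, Lyz2 and Rnf149 (0.18 to 0.20). Abca1 lay closest to Gbp7 (0.22), Abcg1 to Dstyk (0.14), Lpl to Tep1 (0.17), Fabp5 to Dnah2 (0.48), Pparg to Lamp1 (0.16), Trem2 to Emilin2 (0.33) and Gpnmb to Eif5a2 (0.58). Within the set, Pparg was the nearest member to Apoe (0.45), Abcg1 (0.35) and Plin2 (0.33), and Gpnmb was the furthest from its nearest member, Lpl (0.97).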

How the data were processed

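Gene counts were deposited as 1 column per library and lane. The authors trimmed reads with Trimmomatic 0.36 and counted them on genes with STAR 2.5.3a on GRCm38 (mm10), and the strand setting is not given in the sources used here. Counts from the 2 lanes of each library agreed within sampling noise (chi-square per degree of freedom 0.955 to 1.02) and were added as 1 replicate. Genes with at least 10 counts in total and detected in at least 2 of 16 columns were kept (21085 of 55423). Differences were tested with edgeR 4.0.16 (R 4.3.3; TMM factors 0.902 to 1.15; quasi-likelihood F test; group and pool as terms, all 8 libraries), with Benjamini-Hochberg adjustment over all genes tested. A gene was called differentially expressed, or said to rise or fall, at an adjusted p under 0.01 and a mean normalized count over 100 on the scale of 1 lane. The study calls the pools biological replicates, and p-values measure the spread of their libraries that the group and pool terms leave. A pool gave all 4 kinds of sample by the study's methods, and same-numbered libraries were assumed to share mice and paired through the pool term. Correlations of their deviations from the group means were -0.2 to 0.152, which does not show that they share mice. CPM per kilobase used exon lengths of GENCODE M21, which is also the source of gene coordinates. Genes were named from the 5 pathway lists as the 4 largest called changes of each, beside Nr1h2, Nr1h3, Rxra and Tyrobp. Members and lists were chosen with earlier results of these data known. Alternatives were DESeq2 1.42.0, its size factors, no filter, filterByExpr, the legacy fit, no pool term, fits of only the groups compared, each lane alone, other thresholds and leaving out each library.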

Additional observations from a re-analysis of the deposited data

How the results depend on the processing

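Among refits of the members' log2 fold changes, 755 kept direction and side of the threshold, 44 lost a call, 17 gained one and 24 changed sign. For genes named from the lists these numbers were 977, 196, 6 and 7. With 2 pools per group the spread is poorly known, and the cause of each change below was not tested. Without pool as a block, the members called stayed within 1.5 times in every comparison, Pltp lost its call between subsets in tdLN (adjusted p = 0.0128), Pparg gained one (0.0089), and genes called in MSMs between node types went from 5 to 9.

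For SSMs against MSMs in ndLN, members called went from 1 to 0 in a fit of only these groups and 2 from lane 3 alone. They were 4 at an adjusted p under 0.05 and 4 with DESeq2. Genes called went from 2545 to 952 with only these groups, 3883 at 0.05 and 3690 with DESeq2. In tdLN, genes called went from 1832 to 3020 at 0.05 and 3026 with DESeq2. For tdLN against ndLN in SSMs, 0 members and 0 genes were called with only these groups, and 640 genes became 1832 at 0.05 and 1973 with DESeq2. In MSMs, members called went from 0 to 1 with filterByExpr, the legacy fit and each lane alone, 2 at 0.05 and 3 with DESeq2, and genes called were 14 with filterByExpr, 23 with the legacy fit, 0 with only these groups, 24 and 17 from lanes 3 and 4, 93 at 0.05 and 503 with DESeq2. For the interaction, 1 member was called at 0.05 and 1 with DESeq2, and 8 genes became 4 with DESeq2's size factors, 25 and 29 from lanes 3 and 4, 215 at 0.05 and 706 with DESeq2.

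Leaving out 1 library at a time gave 1082 to 2021 genes and 1 to 1 member between subsets in ndLN (Abca1, but Lpl in its place without pool 1 of MSMs from ndLN), 507 to 1867 genes and 0 to 4 members in tdLN, 2 to 345 genes and 0 to 4 members between node types in SSMs, 0 to 3 genes and 0 members in MSMs, and 0 genes and 0 members for the interaction. The lone library of a group was then assumed to vary like the other groups. These refits changed the sign of log2 fold changes that were not called. For Gpnmb the ranges were -1.43 to 0.97 between subsets in ndLN, -2.28 to 1.48 in tdLN, -0.086 to 1.46 between node types in SSMs, -1.27 to 2.49 in MSMs and -1.90 to 1.86 for the interaction. Between node types in MSMs they were -0.013 to 1.23 for Abca1, -0.35 to 0.35 for Apoe, -0.017 to 0.97 for Lpl, -1.08 to 1.21 for Trem2 and -0.22 to 0.17 for Rxra, and in SSMs -0.14 to 0.71 for Abca1. Between subsets in ndLN they were -0.089 to 0.16 for Plin2, -0.24 to 0.51 for Pltp, -0.073 to 0.49 for Nr1h3 and -0.063 to 0.90 for Tyrobp, and in tdLN -0.093 to 0.34 for Lpl. For the interaction they were -0.95 to 0.29 for Abca1, -0.087 to 2.22 for Trem2 and -0.03 to 0.17 for Nr1h2.

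Trem2 in MSMs, fitted at -0.02, was 0.039 in the legacy fit, 0.13 from lane 4 and 0.008 with DESeq2, and Rxra, fitted at -0.04, was 0.045 from lane 4. Relative to the summed macrophage markers, an alternative chosen after seeing the data, the mean log2 ratio of tdLN to ndLN in SSMs was -0.34 for Apoe, -1.10 for Abca1, -0.73 for Abcg1, -0.26 for Trem2, -0.74 for Gpnmb and -0.29 for Pparg, and that of Trem2 in MSMs was 0.031.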
